A study of Dichomitus squalens with 6 samples.

Results

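The 149 gene models described here had lower transcript levels in mycelium of Dichomitus squalens grown on L-rhamnose than on xylose or cellobiose, where their levels were within 2-fold of each other. They were chosen from the 15295 models of the gene catalog by their expression and structure. Dichomitus squalens is a white-rot basidiomycete that breaks down wood polymers, and the monokaryon studied, CBS 464.89, is listed as wild type. Mycelium was collected after 5 days at 28 °C from plates with 1.5% agar and a low-nitrogen medium containing asparagine and succinate, so all groups shared these nutrients. One group had 25 mM L-rhamnose, one 25 mM xylose and one 25 mM cellobiose, with 2 libraries each. The labels do not say whether replicates came from separate plates, so every p-value here measures the spread between these libraries, which may be technical. The stated purpose of the series was to look for regulators of plant biomass breakdown.

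L-rhamnose is a deoxy sugar found in pectin. In filamentous fungi and yeasts that use it, it is oxidised without phosphorylation and cleaved to pyruvate and L-lactaldehyde. Xylose comes from xylan and enters the pentose phosphate pathway by way of xylitol and xylulose, and cellobiose comes from cellulose and is hydrolysed to glucose, which enters glycolysis. The files pair the models with numeric identifiers and positions and not with product names, so no function is given to any model. A RefSeq gene table of another strain, with 12497 genes, shared 0 identifiers with the catalog. For the same reason markers of mycelium could not be looked up, and gene lists by pathway could not be formed.

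Levels are given as FPKM, fragments per kilobase of coding sequence scaled to the size of the library, as the authors deposited them. The models had to have at least 2 exons, a listed length above 400 bases and whole expected counts in all 6 libraries (no read divided among similar genes), and to lie outside scaffolds 52, 68 and 77. That left 10299 models. The mean of FPKM + 1 had to be at least 10 on xylose and on cellobiose, at least 2.5 times the L-rhamnose mean on both, and within 2-fold between xylose and cellobiose, and both L-rhamnose libraries had to lie below the 4 others. The level condition left 7128 models, the fold condition 200, the ratio condition 153 and the last condition 149. These values chose the models, so their levels and fold changes are a description and carry no test. A further 48 models met all the expression conditions and were left out by structure or position. Of these, 22 had counts that were not whole, 13 were 400 bases or shorter, 10 had a single exon and 9 lay on the 3 scaffolds, some for more than 1 of these reasons.

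Library totals ranged from 7306517 to 8126006 expected counts, and 13993 to 14115 models had reads. The lowest expected count of a member in an L-rhamnose library was 3, and the median over both L-rhamnose libraries was 212. No member was at 0 on L-rhamnose. In RNA from whole mycelium, fewer cells that use a gene and less RNA of it per cell cannot be told apart.

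The median member stood at 25.1 and 23.5 FPKM in the L-rhamnose libraries, at 129 and 84.0 in the xylose libraries and at 91.0 and 119 in the cellobiose libraries. The L-rhamnose medians were close to those of the 9514 tested models with the same structure, 27.3 and 26.2 FPKM. The medians of the same 9514 models were 25.9 and 25.2 FPKM on xylose and 27.6 and 27.5 on cellobiose, below those of the members. The rule asked for higher member levels on these sugars, so this difference follows from it. The 9514 models did not have to meet the level condition, so they are not matched to the members in level. The 149 models together took 0.753% and 0.766% of all FPKM on L-rhamnose, 4.64% and 3.21% on xylose and 2.98% and 3.55% on cellobiose. Member means on L-rhamnose ran from 0.95 to 1025 FPKM. They were below 10 FPKM for 33 members and above 100 FPKM for 18. Both L-rhamnose libraries were under 5 FPKM for 10 members.

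**Figure D1:**
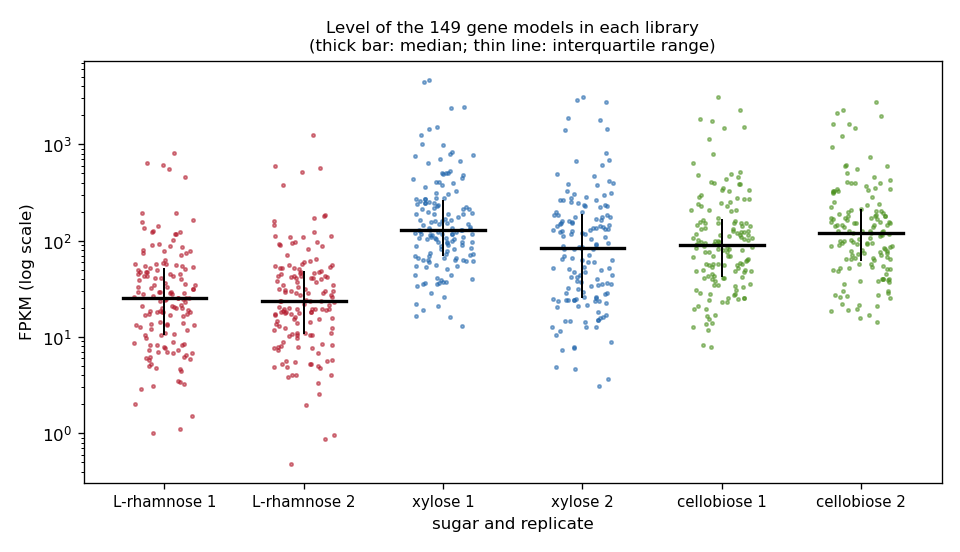
FPKM of each of the 149 gene models (points, log axis) in each of the 6 libraries, with the median (thick bar) and the interquartile range (thin line). The medians are 25.1 and 23.5 FPKM on L-rhamnose, 129 and 84.0 on xylose and 91.0 and 119 on cellobiose, and the points of xylose replicate 2 reach lower than those of the other xylose and cellobiose libraries.

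For each member the smaller of its xylose and cellobiose means (FPKM + 1) was divided by its L-rhamnose mean, here called the smaller fold. Its median was 3.21 and its highest value 21.7. It was at least 10 for 11 members and at least 5 for 36, and it was under 3 for 64, so many members lay near the limit of 2.5. Fold changes fitted by edgeR had a median of -2.20 on the log2 scale between L-rhamnose and xylose and of -1.92 between L-rhamnose and cellobiose, beside 0.01 and 0.00 for all 12667 tested models. In edgeR's quasi-likelihood test, with adjusted p under 0.05, 140 of the 149 members were called lower on L-rhamnose than on xylose, where 15.6% of all tested models were called lower. Against cellobiose 126 were called lower, where the share of all tested models was 11%, and 125 were called in both comparisons, where it was 7.58%. Both comparisons share the L-rhamnose libraries, and the rule used these contrasts, so the counts only describe how the rule and the test overlap. The 125 were 83.9% of the members and 13.0% of the 960 models called lower on L-rhamnose in both comparisons. Without L-rhamnose replicates 1 and 2 the members called numbered 55 and 61 against xylose and 10 and 13 against cellobiose, and without cellobiose replicate 2 they numbered 35 against cellobiose. In those fits fewer of all models were called too, 2.05%, 3.29%, 0.295%, 0.401% and 1.22% in the same order.

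**Figure D2:**
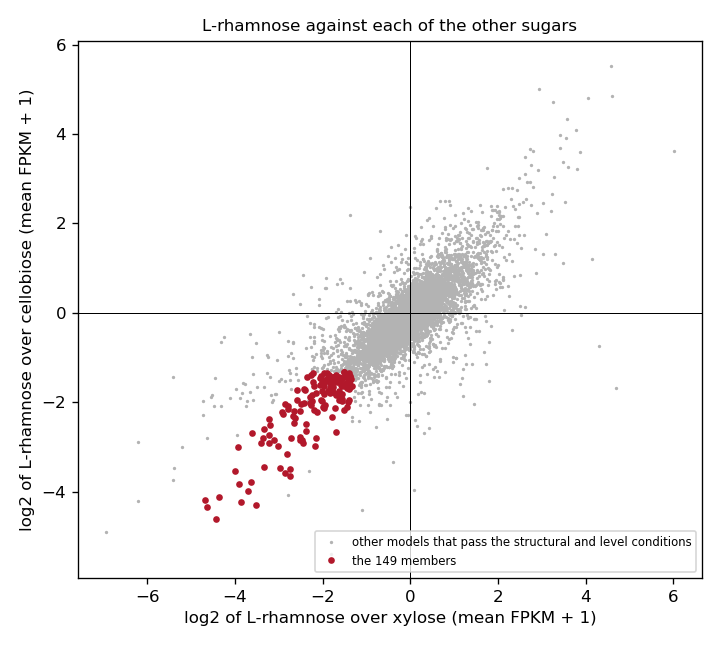
Log2 of the L-rhamnose mean over the xylose mean (x axis) and over the cellobiose mean (y axis), both of FPKM + 1, for the 149 members (red) and the other tested models that pass the structural and level conditions (grey). The members lie in the lower left near the diagonal, 64 of them with a smaller fold under 3 and 36 with one of at least 5.

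Between xylose and cellobiose the members are bound to a 2-fold difference by the rule. Their xylose mean was the higher one for 91 members and the cellobiose mean for 58. Both xylose libraries lay above both cellobiose libraries for 15 members, where 16.3% of all tested models showed this order, and the reverse held for 13 members, where 34.8% did. In edgeR's test 0 members were called in either direction between these sugars (4.21% of all tested models were, 2.55% lower on xylose and 1.66% higher). DESeq2 called 6 members (4.03%), beside 7.47% of all models in its fit, and limma on log2(FPKM + 1) called 0. Without xylose replicate 1 edgeR called 15 members (10.1%), beside 6.08% of all tested models, and without xylose replicate 2 it called 20 (13.4%), beside 7.95%.

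Of the 6 members with the highest levels on xylose and cellobiose, all still had over 100 FPKM in each L-rhamnose library. The model gene_12187, with 4 exons and 783 coding bases (scaffold 65, 83913 to 84870, plus strand), stood at 804 and 1246 FPKM on L-rhamnose, 4659 and 3095 on xylose and 3124 and 2736 on cellobiose. It was the most abundant member on every sugar and kept the highest level on L-rhamnose too. The model gene_1828, with 4 exons and 657 coding bases (scaffold 2, 1269004 to 1269821, minus strand), stood at 457 and 573 FPKM on L-rhamnose, 4450.3 and 2731 on xylose and 2281 and 2285 on cellobiose. Its cellobiose libraries were nearly equal, and its smaller fold was 4.43. The model gene_6494, with 2 exons and 828 coding bases (scaffold 19, 181386 to 182769, plus strand), stood at 613 and 377 FPKM on L-rhamnose, 2376 and 2902 on xylose and 1132 and 2088 on cellobiose. Its 2 xylose libraries lay above both cellobiose libraries. The model gene_1147, with 3 exons and 573 coding bases (scaffold 1, 2264149 to 2265171, plus strand), stood at 636 and 593 FPKM on L-rhamnose, 1256 and 1884 on xylose and 1483 and 1945 on cellobiose, and its smaller fold of 2.55 was near the limit. The model gene_18927, with 15 exons and 1017 coding bases (scaffold 287, 9152 to 10961, plus strand), stood at 123 and 183 FPKM on L-rhamnose, 2417 and 685 on xylose and 1731 and 1631 on cellobiose. It had the largest smaller fold of these 6, 10.1, and its xylose replicate 2 was far below the 3 other xylose and cellobiose values. The model gene_8763, with 8 exons and 1251 coding bases (scaffold 39, 138386 to 140453, minus strand), stood at 549 and 516 FPKM on L-rhamnose, 1018 and 1794 on xylose and 1829 and 1614 on cellobiose.

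The 6 members with the largest smaller folds spanned low and high levels. The model gene_9677, with 15 exons and 2622 coding bases (scaffold 36, 172653 to 176885, minus strand), stood at 7.72 and 5.28 FPKM on L-rhamnose, 190.4 and 133 on xylose and 132 and 235 on cellobiose. Its smaller fold of 21.7 was the largest of all members, and its lowest xylose or cellobiose library was 17.1 times its highest L-rhamnose library, the widest such gap. The 1 added to FPKM shrinks the smaller fold most in members near 1 FPKM on L-rhamnose. Fitted log2 fold changes of gene_9677 were -4.79 against xylose and -4.84 against cellobiose. Those of gene_16047 (-5.48 and -5.09) and gene_16046 (-4.99 and -5.23), both described below, were larger. The model gene_13923, with 4 exons and 513 coding bases (scaffold 72, 102526 to 103604, minus strand), stood at 6.89 and 5.73 FPKM on L-rhamnose, 63.5 and 297 on xylose and 93.7 and 203 on cellobiose (smaller fold 20.4). Its gap was 9.21-fold although both xylose and both cellobiose replicates differed over 2-fold, with xylose replicate 2 the highest library. The model gene_10407, with 5 exons and 546 coding bases (scaffold 57, 105915 to 106950, minus strand), stood at 74.7 and 33.4 FPKM on L-rhamnose, 1437 and 1401 on xylose and 783 and 1206 on cellobiose (smaller fold 18.1). Its xylose libraries were nearly equal and its L-rhamnose libraries differed over 2-fold. The models gene_16047 and gene_16046 on scaffold 86 were among the lowest members on L-rhamnose, with smaller folds of 17.4 and 14.5. The model gene_16047 stood at 1.52 and 0.48 FPKM on L-rhamnose, 73.3 and 7.27 on xylose and 17.1 and 50.4 on cellobiose, and gene_16046 stood at 1.02 and 0.88 FPKM on L-rhamnose, 51 and 3.66 on xylose and 19.6 and 51.4 on cellobiose. In both, xylose replicate 2 was the lowest of the 4 xylose and cellobiose libraries. The model gene_6415, with 2 exons and 1077 coding bases (scaffold 19, 72583 to 74255, minus strand), stood at 29 and 45.6 FPKM on L-rhamnose, 987 and 153 on xylose and 632 and 453 on cellobiose, again with xylose replicate 2 the lowest of the 4 and a smaller fold of 14.2.

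The 2 xylose libraries differed for many members. Xylose replicate 1 was above replicate 2 for 119 of 149 members, by more than 2-fold (FPKM + 1) for 62, whereas replicate 2 was more than 2-fold higher for 4. Together 44.3% of members differed more than 2-fold between xylose replicates, beside 6.68% of the 7128 models that passed the structural and level conditions. The median log2 ratio of xylose replicate 1 over replicate 2 was 0.79 for members and -0.02 for the 7128 models. Cellobiose libraries differed less and the other way round, with replicate 2 above replicate 1 for 113 members and a median log2 ratio of -0.37, beside 0.00 for the 7128 models, and 10.7% of members differed more than 2-fold, beside 2.06%. The L-rhamnose replicates had a median log2 ratio of 0.10, beside 0.05 for the 7128 models, and differed over 2-fold in 4.03% of members, beside 0.673%. The rule averages over replicates, so it admits models that are high in 1 xylose library, and these shares are a description of the chosen set.

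**Figure D3:**
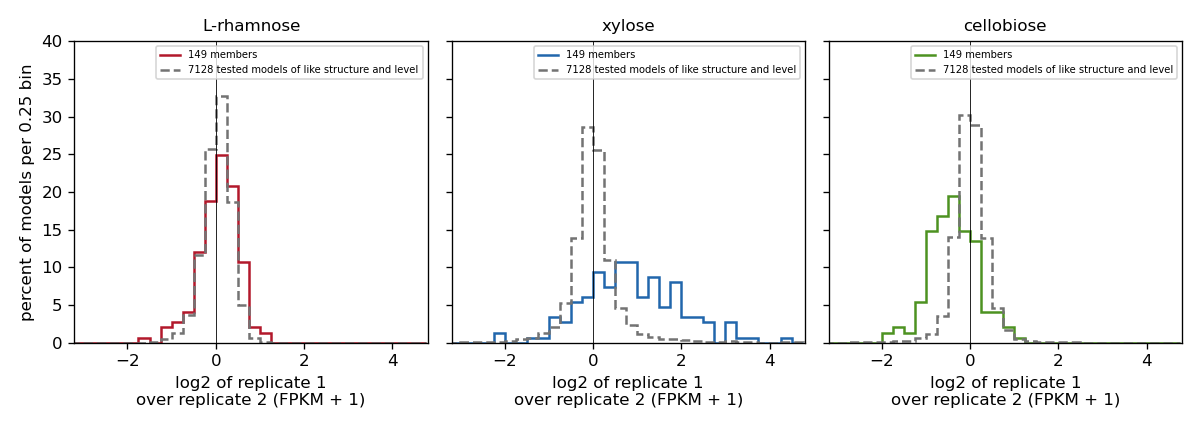
Percent of models per bin of the log2 ratio of replicate 1 over replicate 2 (FPKM + 1) on L-rhamnose, xylose and cellobiose, for the 149 members (solid) and the 7128 tested models that pass the structural and level conditions (dashed). The members lie to the right on xylose, with a median of 0.79, and to the left on cellobiose, with a median of -0.37, while on L-rhamnose both lines lie near 0.

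Read against the L-rhamnose mean, xylose replicate 1 alone was higher by a median of 4.79-fold and xylose replicate 2 alone by 3.02-fold. Xylose replicate 2 reached 2.5-fold for 92 members and was under 1.5-fold for 15. Cellobiose replicate 1 was higher by a median of 3.06-fold and replicate 2 by 3.94-fold, and no member was under 1.5-fold in either. Xylose replicate 2 was the lowest of the 4 xylose and cellobiose libraries for 85 members, and xylose replicate 1 the highest of all 6 for 89. These 2 orders were not counted for other models, so they cannot be called particular to the members. Applied without xylose replicate 1, the rule kept 79 of the 149 members (53.0%) and took in others, 105 models in all. Without xylose replicate 2 it kept 120, without cellobiose replicates 1 and 2 it kept 140 and 109, and without L-rhamnose replicates 1 and 2 it kept 131 and 134.

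The difference between xylose libraries was wider where the smaller fold was larger. The same xylose libraries can enter both values, so 1 high xylose library can raise both, and the split below is a description. Of the 36 members with a smaller fold of at least 5, 25 (69.4%) had xylose replicate 1 more than 2-fold above replicate 2, and of the 113 others 37 (32.7%) did. The widest was gene_10035, with 6 exons and 735 coding bases (scaffold 58, 12870 to 14386, plus strand), which stood at 6.95 and 9.77 FPKM on L-rhamnose, 271 and 12.6 on xylose and 30.4 and 118 on cellobiose. Its cellobiose libraries differed as well, and xylose replicate 2 lay little above the L-rhamnose libraries. The L-rhamnose libraries differed most for gene_8109, with 3 exons and 696 coding bases (scaffold 35, 144380 to 145922, minus strand), which stood at 4.78 and 15.4 FPKM on L-rhamnose, 36.7 and 20.9 on xylose and 46.8 and 39.9 on cellobiose. Its highest L-rhamnose library came close to xylose replicate 2. In gene_185, at 337109 to 338308 on scaffold 1, named after its values were seen because its groups came closest, xylose replicate 2 at 7.67 FPKM was just above L-rhamnose replicate 1 at 7.4 FPKM. In edgeR's test gene_10035 was called in neither comparison (adjusted p = 0.0504 against xylose and 0.122 against cellobiose). Nor was gene_185 (edgeR adjusted p = 0.0784 and 0.145). The model gene_8109 was called against cellobiose (edgeR adjusted p = 0.0317) but not against xylose (0.0515).

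In 30 members both replicates of every sugar lay within 1.5-fold of each other, and their smaller folds ran from 2.52 to 5.48. Of these, 3 are given with values and were chosen after their values were seen, as the members with the largest smaller folds of the 30. The model gene_17950, with 3 exons and 603 coding bases (scaffold 196, 28038 to 28984, minus strand), stood at 36.1 and 30.2 FPKM on L-rhamnose, 239 and 186 on xylose and 162 and 210.3 on cellobiose. The model gene_16713, with 10 exons and 1650 coding bases (scaffold 149, 64617 to 67407, minus strand), stood at 24.2 and 17.2 FPKM on L-rhamnose, 105 and 81.1 on xylose and 107 and 92.2 on cellobiose. The model gene_4121, with 25 exons and 1794 coding bases (scaffold 7, 106013 to 109597, plus strand), stood at 80.2 and 57.5 FPKM on L-rhamnose, 376 and 414 on xylose and 231 and 342 on cellobiose. In each of these 3 the lowest xylose or cellobiose library was more than 2 times the highest L-rhamnose library, which held for 94 of the 149 members, and for 7 it was at least 5 times. The rule itself asked for both L-rhamnose libraries below the 4 others, an order that 21.8% of all tested models showed. How many of those models had gaps this wide was not counted.

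Models just inside and just outside each limit of the rule show how it divides similar models. The member nearest to the fold limit was gene_14519, with a smaller fold of 2.51, which stood at 57.8 and 46.8 FPKM on L-rhamnose, 235 and 66.5 on xylose and 158 and 107 on cellobiose. It was called in neither comparison (edgeR adjusted p = 0.0515 against xylose and 0.108 against cellobiose). Just outside was gene_17057, with 2.497, which stood at 234 and 202 FPKM on L-rhamnose, 671 and 419.9 on xylose and 912 and 1270.1 on cellobiose. The member nearest to the level limit was gene_12137, whose lower mean of FPKM + 1 was 12.9 and which stood at 3.5 and 1.96 FPKM on L-rhamnose, 16.5 and 7.86 on xylose and 8.18 and 15.6 on cellobiose. The nearest model outside that met the other conditions, gene_14791, had a lower mean of 4.54 and was at 0 in 1 L-rhamnose library, so this limit left a wide space. The member nearest to the ratio limit was gene_3613, with a cellobiose mean 1.95 times its xylose mean, and gene_5273, with a xylose mean 2.03 times its cellobiose mean, was just outside.

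In structure the members resembled the 9514 tested models that could have been chosen. Their median coding length was 1209 bases, beside 1212, their median number of exons 6, beside 5, and their median intron 59.5 bases, beside 59. Models of 2 or 3 exons made up 29.5% of the members, beside 25.7%, and those of 10 or more exons 22.8%, beside 19.6%. An annotated UTR was present in 67.8%, beside 69.2%, and 75 of the 149 lay on the plus strand. The member with the most exons and the longest coding sequence was gene_16171, with 40 exons and 4833 coding bases (scaffold 150, 37514 to 44777, minus strand), which stood at 21.2 and 17.6 FPKM on L-rhamnose, 84.8 and 28.5 on xylose and 86.1 and 95.9 on cellobiose. Its xylose replicate 2 was close to the L-rhamnose libraries. The shortest was gene_12864, with 4 exons and 411 coding bases (scaffold 88, 131122 to 132064, minus strand), which stood at 8.76 and 7.29 FPKM on L-rhamnose, 44.3 and 24.5 on xylose and 33 and 28.9 on cellobiose.

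The members lay on 86 scaffolds, 54 of which held 1 member. They made up 1.57% of the 9514 models. Scaffold 1 held 10 of its 790 such models (1.27%), scaffold 6 held 6 of 161 (3.73%) and scaffold 123 held 5 of 14 (35.7%). Scaffold 105 held 4 of 37 (10.8%), scaffold 19 held 4 of 83 (4.82%) and scaffold 12 held 4 of 186 (2.15%). Among scaffolds with 3 members, scaffold 86 had the highest share, 3 of 15 (20%). Directly neighbouring members formed 9 pairs of 18 models, and no longer run. Of the pairs 6 lay on the same strand, 2 were divergent and 1 convergent, 5 were under 1000 bases apart and 0 overlapped. With 1 other model allowed between members, 11 runs held 23 members, the longest with 3.

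The pair with the lowest L-rhamnose levels was gene_16046 and gene_16047, described above, which lie 570 bases apart on the minus strand of scaffold 86 between 111101 and 115724. Another member of that scaffold, gene_16050 at 121512 to 123926, stood at 27.8 and 27.1 FPKM on L-rhamnose, 251 and 44 on xylose and 110.4 and 241 on cellobiose. All 3 were highest or second highest in xylose replicate 1, and xylose replicate 2 was the lowest of the 4. On scaffold 36 gene_9677, described above, lies next to the convergent gene_9676, which has 15 exons and 2619 coding bases (scaffold 36, 167175 to 171322, plus strand). The model gene_9676 stood at 135 and 109 FPKM on L-rhamnose, 841 and 1423 on xylose and 452 and 937 on cellobiose. Both models have 15 exons and coding lengths of 2622 and 2619 bases. Yet gene_9676 was 5.65-fold lower on L-rhamnose by its smaller fold, against 21.7-fold for its neighbour, and its xylose replicate 2 was its highest library. Another member there, gene_9686 at 188788 to 190289, stood at 34.6 and 35 FPKM on L-rhamnose, 405 and 158 on xylose and 204 and 593 on cellobiose.

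Further pairs were milder. On scaffold 196, gene_17949 and gene_17950 lie 848 bases apart on the minus strand, and gene_17949 stood at 8.19 and 5.49 FPKM on L-rhamnose, 43.6 and 24.4 on xylose and 40.9 and 66.6 on cellobiose. Both had all 4 xylose and cellobiose libraries well above L-rhamnose. On scaffold 110, the divergent models gene_13807 and gene_13809 lie 583 bases apart between 102189 and 105409. The model gene_13807 stood at 17.4 and 17.1 FPKM on L-rhamnose, 106 and 41.5 on xylose and 56.8 and 81.3 on cellobiose, and gene_13809 stood at 25.8 and 31.4 FPKM on L-rhamnose, 134 and 52.4 on xylose and 77 and 94 on cellobiose. In both, xylose replicate 1 was over 2.5 times replicate 2.

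Scaffold 123 held 5 members among 13 models between 32985 and 60817. The model gene_13841 stood at 13.4 and 10.5 FPKM on L-rhamnose, 118 and 49.9 on xylose and 79 and 98.8 on cellobiose. The model gene_13843 stood at 3.29 and 3.36 FPKM on L-rhamnose, 95.7 and 15 on xylose and 52.4 and 82.9 on cellobiose. The model gene_13848 stood at 57.4 and 51.5 FPKM on L-rhamnose, 244 and 149 on xylose and 161 and 190.1 on cellobiose. These 3 lie on the minus strand, and gene_13848 kept the highest L-rhamnose level of the group. The divergent neighbour of gene_13848, gene_13850, stood at 10.5 and 10.9 FPKM on L-rhamnose, 197 and 50.2 on xylose and 62.4 and 111 on cellobiose. The model gene_13857 stood at 1.11 and 0.97 FPKM on L-rhamnose, 22.2 and 3.13 on xylose and 23.2 and 26.1 on cellobiose. In all 5 members xylose replicate 1 was above replicate 2, by 1.63-fold to 6.04-fold (FPKM + 1). Of the other 8 models between them, 4 were tested. Both gene_13842, a model of 333 coding bases and so under the length limit, and gene_13851, whose counts were not whole, were called lower on L-rhamnose in both comparisons. The model gene_13842 stood at 11.9 and 8.36 FPKM on L-rhamnose, 76.7 and 29.3 on xylose and 202 and 185 on cellobiose. Its xylose and cellobiose means were thus outside the 2-fold limit, so it failed the expression conditions too. The model gene_13852 stood at 42 and 32.2 FPKM on L-rhamnose, 33.7 and 24.4 on xylose and 46.3 and 42.9 on cellobiose, and was not called in either comparison (edgeR adjusted p = 0.569 against xylose and 0.434 against cellobiose). The lower level on L-rhamnose was not shared by every tested model of the region: gene_13847 was not called either (edgeR adjusted p = 0.123 and 0.558).

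**Figure D4:**
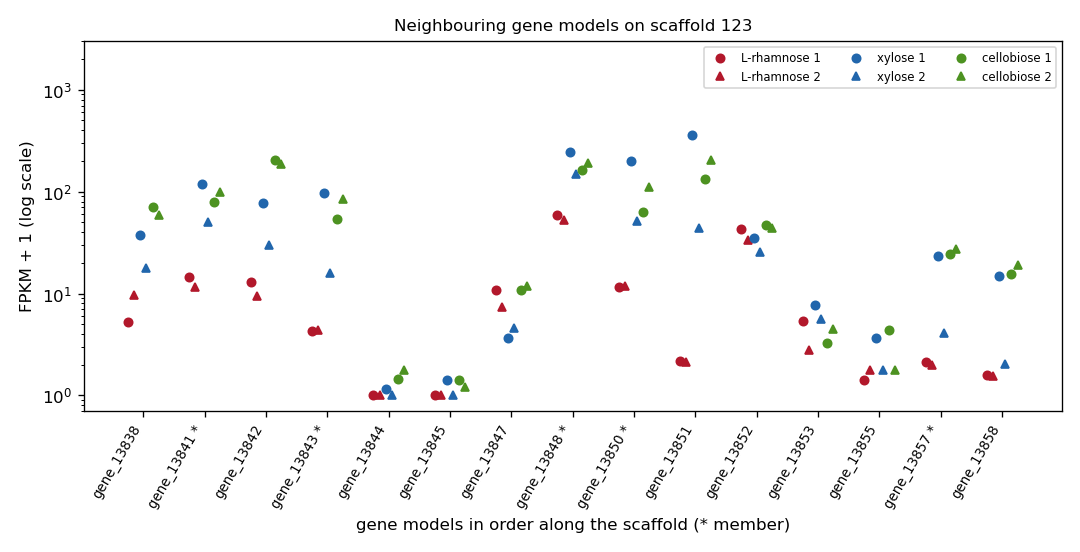
FPKM + 1 (log axis) of the gene models in order along scaffold 123, from 1 model before the first member to 1 after the last, in each library (circles: replicate 1, triangles: replicate 2), members marked with *. L-rhamnose points lie below the xylose and cellobiose points at the 5 members and at gene_13838, gene_13842, gene_13851 and gene_13858, but not at the other 6 models.

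The models next to members were chosen by position. Members had 275 directly flanking models that did not meet the rule themselves, 6 of which met its expression conditions and not its structural ones, and 228 of the 275 were tested. Neighbours that met the whole rule are members, so these shares leave them out. In edgeR's test 56 of the 228 (24.6%) were called lower on L-rhamnose than on xylose, beside 15.6% of all tested models, and 23 (10.1%) were called higher, beside 15.9%. Against cellobiose 46 (20.2%) were called lower, beside 11%, and 15 (6.58%) higher, beside 11%. In both comparisons, which share the L-rhamnose libraries, 35 (15.4%) were called lower, beside 7.58%. The median fitted log2 fold change of the flanking models was -0.18 against xylose and -0.24 against cellobiose, beside 0.01 and 0.00 for all tested models. Library-size scaling without TMM gave 41 (18%) against xylose, beside 11.4% of all tested models, and it moved the median fold change of all models against xylose to 0.16 and the split of lower and higher calls to 1439 and 2471, against 1974 and 2014. These are shares and no test of a difference, and some flanking models neighbour each other or overlap a member. For scale, next to the other 835 models called lower on L-rhamnose in both comparisons, 257 of 1385 tested neighbours that were not members (18.6%) were called lower against xylose and 195 (14.1%) against cellobiose. Of the same 1385 neighbours, 134 (9.68%) were called lower in both comparisons. Such neighbours may themselves be among these models, whereas members were left out next to members, and the shares were not tested against each other. Whether counting used strand is not given in the sources used here, so reads of overlapping models on opposite strands cannot be told apart.

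Among flanking models that did not overlap a member, the shares were higher near the members. Of 132 tested flanking models under 1000 bases from the member, 38 (28.8%) were called lower against xylose and 31 (23.5%) against cellobiose. Of 77 at 1000 bases or more, 15 (19.5%) and 9 (11.7%) were, nearer to the shares of all tested models. The remaining 19 overlapped a member, and 3 (15.8%) of them were called lower against xylose and 6 (31.6%) against cellobiose. By orientation, 14 of 45 divergent neighbours (31.1%) were called lower against xylose and 0 higher. On the same strand 28 of 108 (25.9%) were called lower and 11 (10.2%) higher, and of 75 convergent ones 14 (18.7%) were called lower and 12 (16%) higher. Against cellobiose 10 of the 45, 22 of the 108 and 14 of the 75 were called lower, and 2, 8 and 5 higher. The counts depended on single libraries. Without L-rhamnose replicates 1 and 2, flanking models called lower numbered 10 and 17 against xylose (4.26% and 7.30%, beside 2.05% and 3.29% of all tested models) and 2 and 1 against cellobiose (0.851% and 0.429%, beside 0.295% and 0.401%). Without cellobiose replicates 1 and 2 they numbered 18 and 7 against cellobiose (7.66% and 2.98%, beside 4.45% and 1.22%).

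**Figure D5:**
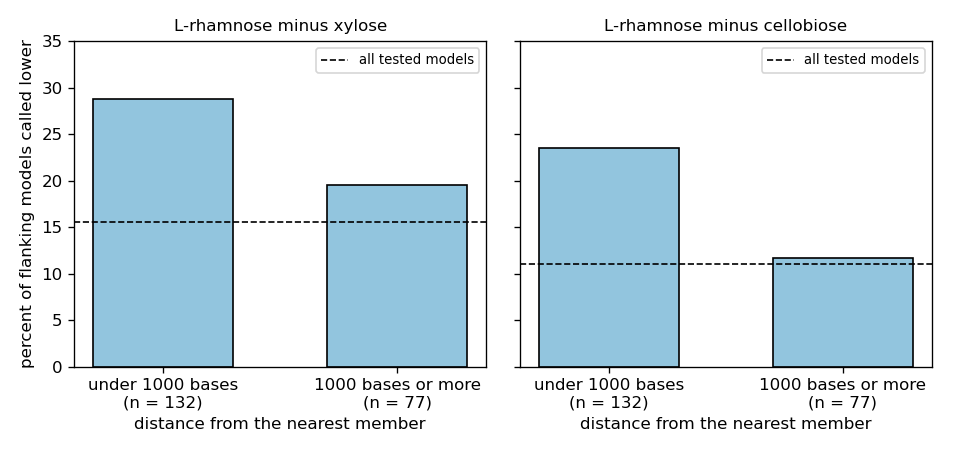
Percent of tested flanking models that edgeR called lower on L-rhamnose (bars from 0), by distance from the nearest member, against xylose (left) and cellobiose (right), with the share of all tested models (dashed). Models under 1000 bases away, overlaps left out, reach 28.8% and 23.5%, and those at 1000 bases or more 19.5% and 11.7%, beside 15.6% and 11%.

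The 2 flanking models with the greatest fitted change were gene_13851, next to gene_13850 on scaffold 123, and gene_14778, next to gene_14777 on scaffold 102. The model gene_13851, with 4 exons and 954 coding bases (scaffold 123, 51777 to 53115, plus strand), stood at 1.18 and 1.13 FPKM on L-rhamnose, 361 and 43.3 on xylose and 132 and 202 on cellobiose. Its log2 fold change was -7.64 ± 1.17 against xylose (SE, edgeR adjusted p = 0.00562) and -7.23 ± 1.16 against cellobiose (edgeR adjusted p = 0.00938). Both calls were lost without L-rhamnose replicate 1 (edgeR adjusted p = 0.0634 and 0.0928) or replicate 2 (0.0572 and 0.0872), while the fold changes were -7.65 and -7.25 without replicate 1 and -7.62 and -7.22 without replicate 2. The second was also lost without cellobiose replicate 2 (edgeR adjusted p = 0.0523), at -6.89. Its counts were not whole, so reads were divided between it and some other model, and its values are uncertain. The model gene_14778, with 8 exons and 1095 coding bases (scaffold 102, 58894 to 60519, plus strand), stood at 1.74 and 1.17 FPKM on L-rhamnose, 152 and 209 on xylose and 5.56 and 28.6 on cellobiose. Unlike the members it stood far lower on cellobiose than on xylose, with a log2 fold change between xylose and cellobiose of 3.52 ± 0.65 (SE, edgeR adjusted p = 0.032). On L-rhamnose its log2 fold change against xylose was -7.09 ± 0.83 (SE, edgeR adjusted p = 0.00264), and against cellobiose -3.57 ± 0.79 (edgeR adjusted p = 0.0231). The call against cellobiose was lost when L-rhamnose replicate 1 was left out (edgeR adjusted p = 0.128), as with L-rhamnose replicate 2 (0.138) or cellobiose replicate 2 (0.0523), with fold changes of -3.86, -3.35 and -1.96.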

How the data were processed

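Mycelium of 6 samples, 2 per sugar, was sequenced as Illumina libraries. The authors deposited 1 table per library with the coding length, an expected count and an FPKM value for each gene model with reads. The submitters' processing notes name Bowtie2, HISAT and RSEM; for versions, settings and strand the sources used here give nothing. Positions are those of the deposited gene catalog of this strain, with the assembly name Dicsqu464_1 in the annotation. Models without reads were taken as 0. The listed lengths equalled the summed coding parts of the deposited gene models in 100.0% of entries, so reads wholly in UTRs would not enter the values.

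Members were found with the rule in the text, on the deposited FPKM, with whole meaning within 1e-06 of a whole number. Expected counts as deposited were rounded to whole numbers. Of 14443 models with a count, 12667 passed filterByExpr. They were tested by edgeR's quasi-likelihood test (edgeR 4.0.16, glmQLFit and glmQLFTest, R 4.3.3) after TMM scaling, all 6 libraries in one fit without covariates, with Benjamini-Hochberg adjustment within a comparison and a threshold of 0.05. A standard error is the absolute fold change on the log2 scale over the root of its F. The common biological coefficient of variation was 0.218. The fit was tested on simulated data. Alternatives were DESeq2 1.42.0, limma 3.58.1 on log2(FPKM + 1) or log2(FPKM + 0.1), other size factors and filters, fits of 2 sugars, a replicate block, each library left out, and other limits of the rule.

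The members and the comparisons were chosen with earlier results of these data known. Named members are the 6 most abundant, the 6 with the largest smaller fold, those in neighbouring pairs (at most 10), those at each limit, at the ends of length and exon number, and with the widest replicate differences; of flanking models, the 2 with the greatest fitted change. Further models of scaffolds 123, 86 and 36 were named for their position after their values were seen, and other exceptions are marked in the text.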

Additional observations from a re-analysis of the deposited data

How the results depend on the processing

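With 2 libraries per sugar, the number of calls depended on single libraries. Leaving out 1 library at a time, where the sugar's other library is taken to vary as those of the other sugars do, members called lower on L-rhamnose ranged from 10 to 149 against cellobiose (126 with all libraries) and from 55 to 148 against xylose (140), flanking models from 1 to 62 (46) and from 10 to 58 (56), and members called between xylose and cellobiose from 0 to 20 (0). Over the same fits the share of all tested models called lower on L-rhamnose moved as well. It fell below and rose above the 11% against cellobiose and 15.6% against xylose of the fit with all libraries. In both comparisons it was lowest without L-rhamnose replicate 1 and highest without xylose replicate 2. The ranges of lower calls are therefore no trait of the members or flanking models alone. DESeq2 called 6 members between xylose and cellobiose. The median fold change of members stayed between -2.07 and -1.73 against cellobiose and between -2.49 and -1.75 against xylose on the log2 scale, and -1.75 came without xylose replicate 1. Models that met the rule numbered 149, 321 at a minimum fold of 2 and 85 at 3, and from 105 to 186 without 1 library. On TMM-scaled FPKM, in place of FPKM as deposited, 174 models met the rule, and 144 of the 149 members were among them. Neighbouring pairs or runs numbered 20 at a minimum fold of 2, against 9. The replicate numbers are shared by the labels without a stated pairing, and differences between replicates 1 and 2 correlated across genes with r of -0.0868 between L-rhamnose and xylose, -0.2 between L-rhamnose and cellobiose and -0.124 between xylose and cellobiose. With a replicate block, members called lower numbered 112 against cellobiose and 127 against xylose, and flanking models 28 and 37 (12.3% and 16.2%, beside 5.86% and 10.5% of all tested models). Counts by distance, by orientation, of higher calls and of calls in both comparisons were not recomputed under these settings. In all, 928 alternative fold changes were fitted for the models named by the fixed rule and the 2 named flanking models. The former include the non-members just outside each limit. These fold changes held 0 reversals, 129 lost calls and 24 gained ones. The rule set the direction of the members, so the lack of reversals among them carries no support. Depth limits the least abundant members, with counts down to 3 on L-rhamnose. The cause of these changes was not tested.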
